A study of Mus musculus with 2 samples.

Results

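Gzmc-high natural killer (NK) cells were taken from a single-cell RNA sequencing study of CD45+ immune cells sorted from mouse tumours. They were selected on measured RNA, as barcodes with at least 2 UMIs (unique molecular identifiers, each counting 1 captured RNA molecule) of the NK genes Ncr1 and Klre1 together, no UMI of the T cell genes Cd3e and Cd3d, under 2 UMIs of the proliferation genes Mki67 and Top2a, and Gzmc at 5000 CPM or more of the cell's own UMIs. CPM are a gene's UMIs scaled to a total of 1000000 UMIs, within a cell or over a group of cells. In all, 590 of 12252 kept cells met this rule. Of these, 262 were among 5833 cells of the TB library and 328 among 6419 cells of the PBS library. Wild-type BALB/c mice carried subcutaneous tumours of MFC cells, a mouse forestomach carcinoma line. Thonzonium bromide, a surfactant drug reported to block the proton-pumping vacuolar ATPase, was given to the mice of the TB library at 50 mg/kg every other day from day 6 until tumours were taken on day 10. The PBS library came from tumour-bearing mice labelled as given PBS, and both carry the same protocol text. How many mice entered a library is not given in the labels, and each group is 1 library, so the differences reported here could not be tested and have no replicates behind them. The 95% intervals cover counting error within these libraries only.

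NK cells are innate lymphocytes that kill infected or transformed cells by releasing granules of perforin, which opens the target's membrane, and granzymes, serine proteases that cleave proteins inside it. In the mouse, Gzmb is joined on one chromosome by the rodent paralogues Gzmc, Gzmd, Gzme, Gzmf, Gzmg and Gzmn, which are known to be switched on late in cytotoxic lymphocytes kept in cytokine, above all IL-2 and IL-15. NK cells that settle in tissues and tumours are also known to lose the surface genes of circulating NK cells and to gain integrins that hold them in place.

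The granzyme genes of this cluster lie on the minus strand of chromosome 14 in GRCm38, with Gzmc at chr14:56231441-56234656 and Gzmb at chr14:56258838-56262260. The windows printed here surround the RefSeq start of each gene (RefSeq, GRCm38.p6, minus strand, 300 bases each, 5′ to 3′). For Gzmb that start lies upstream of the gene's end coordinate in the GENCODE annotation given above. They are shown because Gzmc and Gzmd were high together in the cells described here, whereas Gzmn had no UMI in the TB cells and 2 in the PBS cells, and Gzmb was no higher than in the other NK cells. Capitals mark letters that match the core TGTGGT of Runx factors, TTCNNNGAA of STAT factors or TGANTCA of AP-1 factors, each searched on both strands. The core GGTGTGA of T-box factors was searched as well and was in none of the windows of the cluster.
Gzmc, chr14:56234608-56234907: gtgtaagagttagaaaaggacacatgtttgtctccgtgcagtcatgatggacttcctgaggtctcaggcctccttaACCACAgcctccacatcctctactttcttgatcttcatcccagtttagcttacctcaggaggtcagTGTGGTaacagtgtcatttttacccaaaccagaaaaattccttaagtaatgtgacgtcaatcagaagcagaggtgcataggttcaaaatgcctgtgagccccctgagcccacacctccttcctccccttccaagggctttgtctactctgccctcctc
Gzmd, chr14:56132544-56132843: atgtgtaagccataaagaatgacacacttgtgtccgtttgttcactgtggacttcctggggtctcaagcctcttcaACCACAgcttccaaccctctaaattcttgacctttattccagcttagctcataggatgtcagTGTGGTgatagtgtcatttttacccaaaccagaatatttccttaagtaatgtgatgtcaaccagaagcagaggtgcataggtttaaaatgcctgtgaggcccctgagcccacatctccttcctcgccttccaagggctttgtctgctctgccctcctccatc
Gzmn, chr14:56174550-56174849: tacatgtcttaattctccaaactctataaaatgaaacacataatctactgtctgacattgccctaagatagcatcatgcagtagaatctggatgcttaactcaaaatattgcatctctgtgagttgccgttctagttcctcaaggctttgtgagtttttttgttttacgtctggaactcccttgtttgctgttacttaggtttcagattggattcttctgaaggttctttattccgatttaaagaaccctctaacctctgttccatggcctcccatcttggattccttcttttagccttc
Gzmb, chr14:56262285-56262584: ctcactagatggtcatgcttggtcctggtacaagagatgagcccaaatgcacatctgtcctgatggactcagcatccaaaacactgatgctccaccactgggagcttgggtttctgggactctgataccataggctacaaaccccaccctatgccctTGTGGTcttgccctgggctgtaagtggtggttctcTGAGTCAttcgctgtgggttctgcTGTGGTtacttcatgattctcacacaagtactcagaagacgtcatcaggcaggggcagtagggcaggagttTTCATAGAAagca

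The windows of Gzmc, Gzmd, Gzme, Gzmf and Gzmg each held ACCACA followed by TGTGGT, the same core read on opposite strands, with the first match between 174 and 195 bases before the start. Gzmb held a pair of TGTGGT matches, at 93 and 34 bases before its start, with TGAGTCA between them, and Gzmn held none of the searched letters. For comparison, 16.7% of 32544 mouse promoter windows of the same length held the Runx core at least once and 1.80% held it at least 2 times, 8.33% held the STAT letters, 7.79% the AP-1 letters and 3.95% the T-box letters. The window of Gzmc was 85.3% identical to that of Gzmd, 86.0% to Gzme, 81.3% to Gzmf and 82.3% to Gzmg, against 62.0% to Gzmn and 58.3% to Gzmb. The last 300 bases of the transcripts, where a 3′ library reads, set Gzmc apart: it was 58.3% to 61.7% identical to Gzmd, Gzme, Gzmf and Gzmg, with no shared run longer than 18 bases in the last 500. Those 4 genes were 85.7% to 90.0% identical to one another there, and Gzmd and Gzme shared a run of 96 bases. Gzmn was 83.3% to 85.7% identical to them there and shared a run of 88 bases with Gzmg. How the counting split reads among Gzmd, Gzme, Gzmf, Gzmg and Gzmn is therefore uncertain. Their values carry that limit, the UMIs of Gzmn given above included, while those of Gzmc do not.

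The Gzmc-high cells were deep: they held a median of 14569 UMIs and 3393 genes in the TB library and 10123 UMIs and 2886 genes in the PBS library, against 7059 and 6245 UMIs in the other non-cycling NK cells. Over these cells 3847939 UMIs were summed in the TB library and 3780523 in the PBS library. Haemoglobin genes, which NK cells do not express, took 0.0292% of their UMIs in the TB library and 0.799% in the PBS library, and 0.289% and 2.27% in the other NK cells. Of the barcode sequences, 14 occurred in both deposited libraries, of which 2 were Gzmc-high cells of the PBS library and none was one of the TB library. Depth and haemoglobin thus differed between the libraries along with the treatment, and their part in the results was not tested.

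The rule placed its threshold on a broad upper shoulder of Gzmc and not in a gap. Within the Gzmc-high cells Gzmc ran between 5202 and 47226 CPM per cell with a median of 11626 in the TB library, and between 5004 and 74669 CPM with a median of 11487 in the PBS library. These medians came from a median of 167 UMIs of Gzmc per cell in the TB library and 116 in the PBS library. Between 5000 and 7500 CPM there were 45 TB and 76 PBS cells, just inside the threshold, and between 2500 and 5000 CPM there were 80 TB and 99 PBS cells just outside it. At the upper end, 40 TB and 51 PBS cells had Gzmc at 20000 CPM or more.

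**Figure D1:**
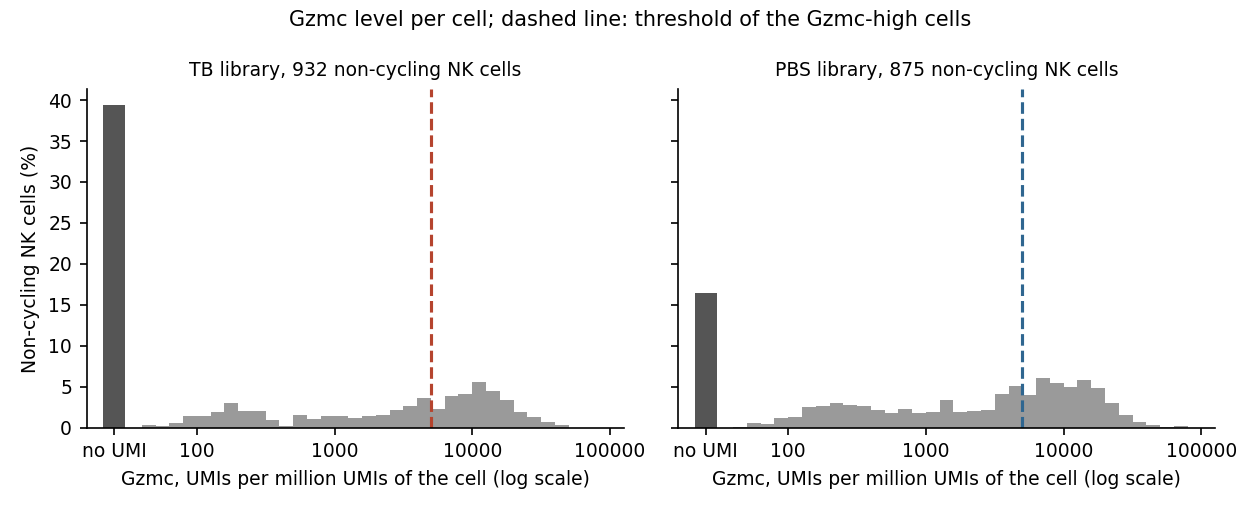
Share of non-cycling NK cells (y axis, percent) by Gzmc in CPM of the cell's UMIs (x axis, log scale, dark bar for cells without a Gzmc UMI), in the TB library on the left and the PBS library on the right. The dashed line is the threshold of 5000 CPM. Above it both libraries spread broadly, with medians of 11626 CPM in the TB and 11487 CPM in the PBS library, and cells without a Gzmc UMI make up 39.4% in the TB library and 16.5% in the PBS library.

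Gzmc-high cells made up a smaller share of the non-cycling NK cells in the TB library. There, 262 of 932 cells passed, or 28.1% (95% Clopper-Pearson interval 25.2 to 31.1), against 328 of 875 in the PBS library, or 37.5% (34.3 to 40.8). The ratio of the shares was 0.75. Over all kept cells the shares were closer, at 4.49% (3.97 to 5.06) in the TB library and 5.11% (4.58 to 5.68) in the PBS library, and non-cycling NK cells were 16.0% of the TB library and 13.6% of the PBS library. With cells that carried 2 or more UMIs of B cell, myeloid or dendritic markers left out, the share among non-cycling NK cells was 20.7% in the TB library and 33.5% in the PBS library. Over all cells kept in that setting, which removes most B and myeloid cells from the total, the order turned, at 7.30% in the TB library and 6.79% in the PBS library.

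NK cells with no Gzmc UMI at all showed a wider gap, at 39.4% of the TB and 16.5% of the PBS library's non-cycling NK cells. B cells, which should lack the gene, had a Gzmc UMI in 12.2% of 492 cells of the TB library and in 52.8% of 193 cells of the PBS library, at median depths of 3714.5 and 3832 UMIs. Whether these UMIs came from free RNA or mixed barcodes was not tested. Thinned to 1000 UMIs per cell, the B cell shares were 3.7% in the TB library and 18.1% in the PBS library, against 24.2% and 44.6% of the other non-cycling NK cells. The threshold of 5000 CPM was reached by 0 of 492 B cells of the TB library, which allows a share of up to 0.747% (Clopper-Pearson), and by 2 of 193 in the PBS library, or 1.04% (0.126 to 3.69).

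Gzmc at this level was not limited to the selected cells. Among NK cells with 2 or more UMIs of Mki67 and Top2a, 84 of 156 in the TB library (53.8%) and 143 of 236 in the PBS library (60.6%) were also at 5000 CPM or more. T cells with no NK gene UMI reached it in 1 of 807 cells of the TB library and 12 of 790 of the PBS library. Of all kept barcodes at this Gzmc level, the Gzmc-high NK cells were 262 of 442 in the TB library, or 59.3%, and 328 of 806 in the PBS library, or 40.7%. A further 65 TB barcodes (14.7%) and 122 PBS barcodes (15.1%) passed on the NK genes but carried a Cd3 UMI. Barcodes with neither an NK gene UMI nor a Cd3 UMI numbered 16 in the TB library and 91 in the PBS library, and they were shallow, with medians of 1242 and 1013 UMIs.

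In the summed UMIs, Gzmd, Gzme, Gzmf and Gzmg were also higher in the Gzmc-high cells than in the other NK cells, and Gzmb was not, although many cells carried none of these paralogues. Summed over cells and expressed as CPM of the group's UMIs, Gzmc stood at 14457 CPM (14337 to 14577) in the TB and 14514 CPM (14393 to 14636) in the PBS Gzmc-high cells, against 900 and 1240 CPM in the other non-cycling NK cells of the TB and PBS libraries. As Gzmc chose the cells, this contrast is a description and so are all contrasts with the other NK cells. Gzmd, a paralogue not used in the rule, stood at 818 CPM in the TB and 835 CPM in the PBS Gzmc-high cells, against 39.4 and 41.2 CPM in the other NK cells, which made it 20.7 and 20.3 times as high. Cycling NK cells are not part of these contrasts and were not split by Gzmc. They had Gzmd at 532 CPM in the TB and 921 CPM in the PBS library, and Gzme at 229 and 331 CPM. High paralogue levels were thus not particular to the Gzmc-high cells.

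Gzme was at 425 CPM in the TB and 292 CPM in the PBS Gzmc-high cells, against 20.5 and 26.6 CPM in the other NK cells. Gzmf was at 679 and 431 CPM, against 109 and 36.9 CPM, and Gzmg was at 124 and 281 CPM, against 1.19 and 1.51 CPM, in the same order of groups and libraries. Gzmb, the granzyme best known for triggering death of target cells, was at 3432 CPM in the TB and 3370 CPM in the PBS Gzmc-high cells, which was below the 4581 and 4317 CPM of the other NK cells. Gzma, on chromosome 13 and outside the cluster, was lower still, at 2241 and 1516 CPM against 7747 and 5799 CPM. The Gzmc-high cells thus carried more UMIs of Gzmc than of Gzmb, whereas the other NK cells carried more of Gzma and Gzmb than of Gzmc; these are CPM and not levels per gene length.

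**Figure D2:**
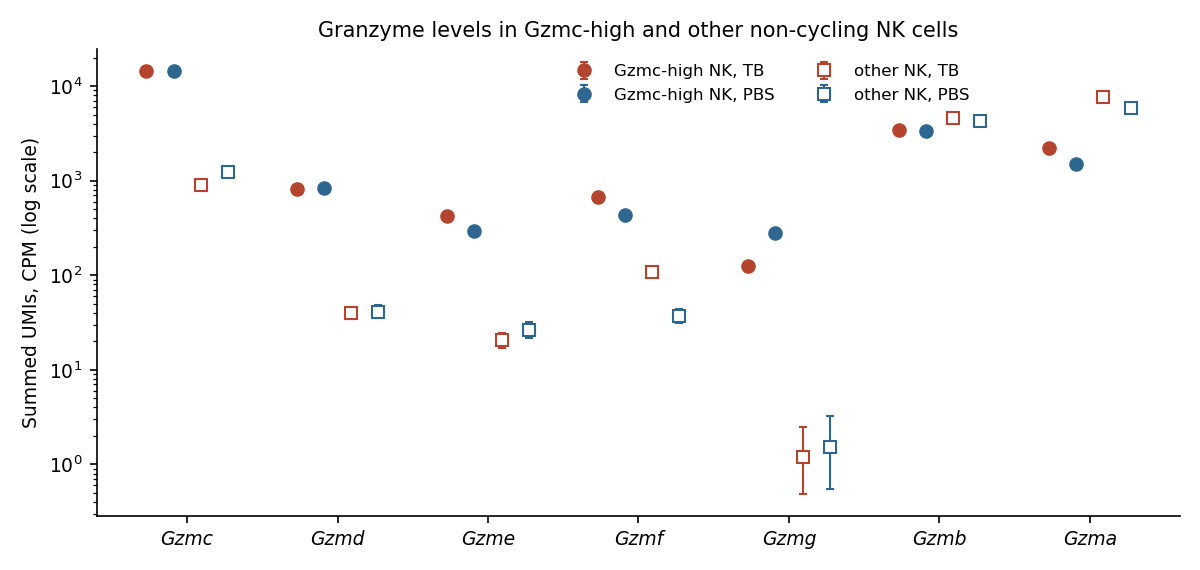
Granzyme levels (y axis, CPM of summed UMIs, log scale) in Gzmc-high NK cells (filled circles) and other non-cycling NK cells (open squares) of the TB library (red) and the PBS library (blue), with exact Poisson 95% intervals that are mostly smaller than the symbols. Gzmc, Gzmd, Gzme, Gzmf and Gzmg lie above the squares in both libraries, Gzmb and Gzma below them.

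Behind these sums, the paralogues were unevenly spread over the Gzmc-high cells. Gzmd had a UMI in 131 of 262 TB cells (50.0%) and 120 of 328 PBS cells (36.6%), and after thinning to 1000 UMIs in 29.5% and 21.8%, against 2.4% and 4.2% of the other NK cells and 0.6% and 0.5% of the B cells. Gzme had a UMI in 101 TB and 96 PBS cells. Gzmf was seen in only 27 TB and 64 PBS cells, and the 10 cells with the most held 84.4% of its TB and 81.0% of its PBS UMIs. Gzmg rested on single cells: 1 cell with 365 UMIs held 76.7% of the TB sum, and 1 cell with 916 UMIs held 86.3% of the PBS sum.

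Most cells that carried much Gzme were among those that carried much Gzmd, while pairs with Gzmf overlapped less evenly. At 10 or more UMIs, Gzmd marked 72 TB and 55 PBS cells, Gzme 52 TB and 26 PBS cells, and both together 47 TB and 23 PBS cells, which is 65.3% and 41.8% of the Gzmd cells and 90.4% and 88.5% of the Gzme cells. Gzmf at 10 or more UMIs was found in 16 TB cells, 11 of them also at that level of Gzmd, and in 21 PBS cells, 9 of them at that level of Gzmd. Gzmf and Gzme shared 11 TB cells and 3 PBS cells, and Gzmf and Gzmg shared 3 TB cells and 0 PBS cells. The level of 10 UMIs was not scaled to depth, and no expected overlap was computed. In total, 81 TB cells (30.9%) and 70 PBS cells (21.3%) had 10 or more UMIs of at least 1 of these 4 genes. The near-identity of Gzmd and Gzme transcripts bears on their overlap, and its part was not tested. At the other end, 119 TB cells (45.4%) and 159 PBS cells (48.5%) had Gzmc without a UMI of any other of these paralogues.

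Within the Gzmc-high cells, Gzmd and Gzme were higher where Gzmc was higher. Split into terciles by Gzmc CPM, the TB cells had 326, 606 and 1407 CPM of Gzmd in the lowest, middle and highest tercile, and the PBS cells had 284, 550 and 1466 CPM. Gzme stood at 152, 253 and 801 CPM in the TB terciles and at 55.4, 235 and 507 CPM in the PBS terciles. Gzmf showed no such order, with 873, 358 and 815 CPM in the TB terciles and 102, 724 and 415 CPM in the PBS terciles. Depth moved along with the terciles, at medians of 11905.5, 14314 and 16132 UMIs in the TB library and 8350, 9639 and 13743 UMIs in the PBS library, and its part was not tested.

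Other NK genes followed the terciles less. Xcl1, the chemokine that draws cross-presenting dendritic cells, stood at 1467, 1768 and 1895 CPM in the TB terciles and 1159, 1914 and 1938 CPM in the PBS terciles. Gzmb was at 3284, 3649 and 3354 CPM in the TB terciles and at 2630, 3510 and 3775 CPM in the PBS terciles, so the order was by tercile in the PBS library and not in the TB library. Klrb1c, an NKR-P1 family receptor gene of NK cells, went the other way, with 336, 320 and 256 CPM in the TB terciles and 350, 258 and 202 CPM in the PBS terciles. Cd7, a surface protein of T and NK cells, also did, at 60.6, 44.9 and 22.6 CPM in the TB terciles and 46.8, 20.8 and 14.2 CPM in the PBS terciles.

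**Figure D3:**
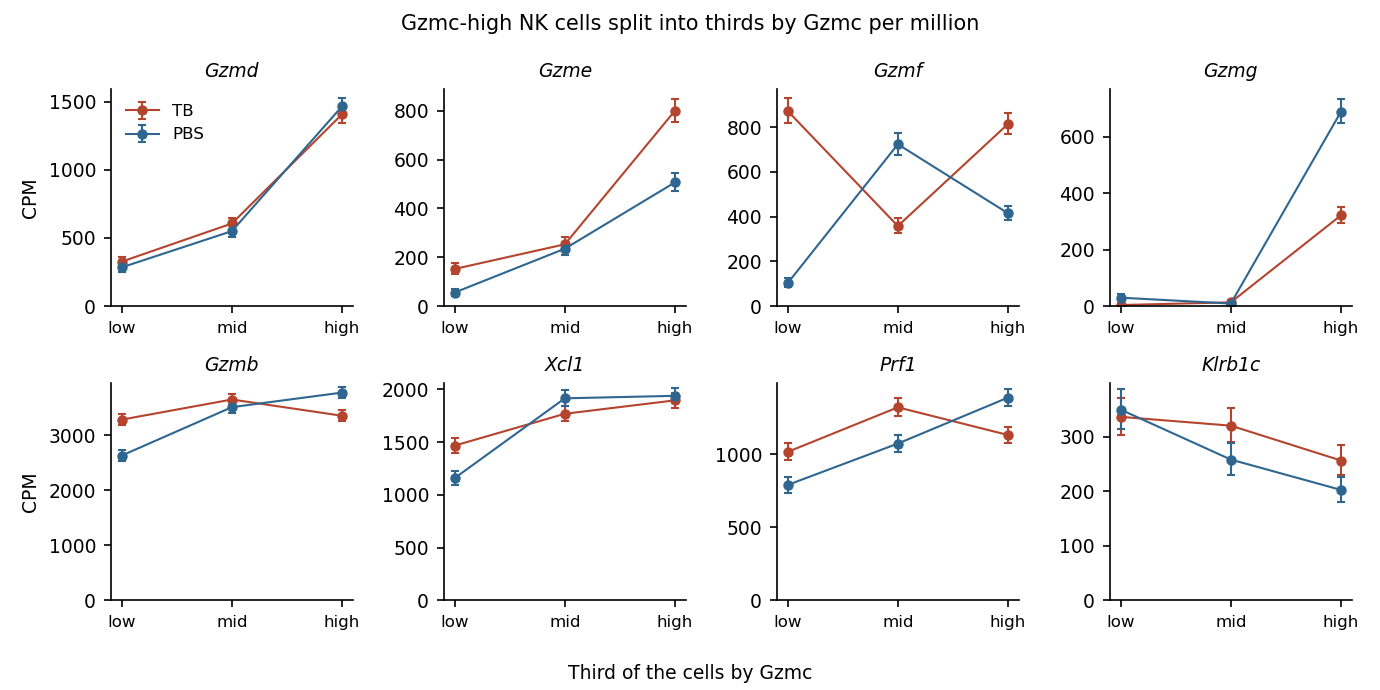
Levels of 8 genes (y axes, CPM from 0, exact Poisson 95% intervals) in Gzmc-high NK cells split into terciles by Gzmc CPM (x axis, lowest to highest), in the TB library (red) and the PBS library (blue). Gzmd and Gzme step up with Gzmc in both libraries, Gzmf does not, and Klrb1c steps down. The Gzmg value of the highest tercile rests on 1 cell in each library.

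Over all 2919 genes that could be compared in both libraries, 53 (1.82%) were at least 1.5-fold higher and 160 (5.48%) at least 1.5-fold lower in the Gzmc-high cells than in the other NK cells of their own library, in TB and in PBS. Among the 160 were 4 erythroid markers. The median gene was lower by 0.12 on the log2 scale in the TB library and by 0.11 in the PBS library, and the cause was not tested. With ratios divided by that median the counts were 69 higher and 109 lower, and with granzyme, mitochondrial, ribosomal and haemoglobin genes left out of the total they were 103 higher and 149 lower, at 4010 genes compared. Outside the granzymes, the genes furthest above the other NK cells in both libraries were Myo10, an unconventional myosin of cell protrusions (6.88 times in TB and 5.66 times in PBS), Sema6d, a transmembrane semaphorin (5.63 and 5.87 times), Igflr1 (3.47 and 3.52 times), Serpinb6a (2.63 and 2.66 times), the integrin gene Itga1 (3.35 and 2.53 times) and C1qtnf6 (2.49 and 2.75 times).

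The granule machinery was otherwise mostly alike. Prf1, which encodes perforin, was at 1161 CPM in the TB and 1118 CPM in the PBS Gzmc-high cells, against 1018 and 1002 CPM in the other NK cells, and had a UMI in 94.7% and 89.9% of the Gzmc-high cells. Of 16 genes of lytic granules that could be compared, 1 was at least 1.5-fold higher in both libraries, 2 were lower and 13 were neither. Of all genes 1.82% were higher and 5.48% lower, and 16 genes are too few to tell whether the list departs from these shares. The higher granule gene was Serpinb6a, an intracellular protease inhibitor, at 64.7 and 52.9 CPM in the TB and PBS Gzmc-high cells, against 24.6 and 19.9 CPM. The lower ones were Lamp2, a lysosome membrane protein, and Lyst, which shapes lytic granules and was at 39.2 and 43.4 CPM against 72.5 and 82.9 CPM.

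Most activating NK receptors and adaptors were not past 1.5-fold in both libraries, but as a list they leaned lower in the Gzmc-high cells. Their median was -0.38 on the log2 scale in the TB and in the PBS library, against -0.12 and -0.11 for all genes. Ncr1, the activating receptor NKp46 and part of the rule in both groups, was at 376 CPM in the TB and 356 CPM in the PBS Gzmc-high cells, against 418 and 329 CPM in the other NK cells. Styk1 was at 250 and 232 CPM, against 151 and 186 CPM, and Xcl1 at 1726 and 1714 CPM, against 1202 and 1430 CPM, so of the 6 genes named as markers of these cells, Gzmc and Gzmd alone were at least 1.5-fold higher in both libraries. Of 16 activating receptors and adaptors, 2 were at least 1.5-fold lower in both libraries and none was higher, against 5.48% of all genes lower and 1.82% higher. These were Klrb1c, at 301 and 262 CPM against 585 and 493 CPM, and Cd247, the signalling zeta chain, at 32.0 and 37.8 CPM against 76.8 and 66.8 CPM.

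Among the Ly49 receptors, which read MHC class I, 2 of 6 were at least 1.5-fold lower in both libraries, Klra4 and Klra9. This compares with 5.48% of all genes, and the list median was -0.76 on the log2 scale in the TB and -0.62 in the PBS library. These genes are named as the counting assigned them. How it split reads among the Ly49 genes of BALB/c mice was not examined, so values of single Ly49 genes are uncertain. Of 5 checkpoint receptors that could be compared, 1 was higher and none was lower, against 1.82% and 5.48% of all genes. It was Cd96, which binds nectin-type ligands, at 87.8 and 89.4 CPM in the TB and PBS Gzmc-high cells against 40.1 and 47.7 CPM. Ctla4 and Lag3, inhibitory receptors better known from T cells, missed the filter of 50 CPM in 1 or both libraries and were not counted, with Ctla4 at 64.5 and 49.7 CPM against 18.6 and 15.1 CPM and Lag3 at 49.9 and 48.9 CPM against 21.0 and 26.6 CPM.

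Of 11 genes of tissue-resident lymphocytes, 5 were at least 1.5-fold higher in both libraries in the Gzmc-high cells, 1 was lower and 5 were neither, against 1.82% of all genes higher and 5.48% lower. Itga1, the collagen-binding integrin CD49a, stood at 125 CPM (114 to 136) in the TB and 119 CPM (108 to 131) in the PBS Gzmc-high cells, against 37.2 and 47.0 CPM, and after thinning it had a UMI in 16.1% and 11.0% of them, against 3.9% and 5.6% of the other NK cells. Inpp4b, a lipid phosphatase, was at 73.5 and 82.5 CPM against 23.2 and 36.4 CPM, and Rgs1, which dampens chemokine signals, at 1327 and 1234 CPM against 686 and 686 CPM. Tnfsf10, the death ligand TRAIL, was at 78.5 and 74.1 CPM against 40.6 and 46.7 CPM, and Kit, the stem cell factor receptor, at 87.6 and 77.2 CPM against 36.9 and 30.7 CPM. Cd9 was the lower one, and Cd69 lay within 1.5-fold at 221 and 285 CPM against 258 and 278 CPM. With the cells thinned to 1000 UMIs the median of the list in the PBS library was -0.011 on the log2 scale. Cycling NK cells, outside this contrast, had Itga1 at 102 CPM in the TB and 106 CPM in the PBS library.

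Of 14 genes of mature circulating NK cells, 8 were at least 1.5-fold lower in both libraries, none was higher and 6 were neither, against 5.48% of all genes lower. Itgam, the integrin CD11b, was at 6.76 CPM in the TB and 8.99 CPM in the PBS Gzmc-high cells, against 90.4 and 61.3 CPM in the other NK cells. Itga2, the integrin CD49b by which mouse NK cells are often stained, was at 12.7 and 19.6 CPM against 113 and 77.4 CPM. Klf2, a transcription factor that keeps lymphocytes in circulation, was at 31.4 and 46.6 CPM against 219 and 176 CPM, and Zeb2, a factor of NK maturation, at 60.3 and 70.1 CPM against 186 and 182 CPM. S1pr5, the receptor by which NK cells leave tissues, had 3 and 4 UMIs in the TB and PBS Gzmc-high cells, against 139 and 60 UMIs, and was too low to be compared. Itgb2, Ccl5 and Gzma were also among the lower ones. Cycling NK cells, outside this contrast, had Itgam at 18.2 CPM in the TB and 10.0 CPM in the PBS library, and Ccl5 at 527 and 248 CPM.

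Some integrins were higher and others lower. Of 19 adhesion genes, 3 were at least 1.5-fold higher in both libraries and 6 lower, against 1.82% and 5.48% of all genes. The higher ones were Itga1, Itgav at 88.6 and 108 CPM against 52.6 and 58.0 CPM, and Itgb3 at 130 and 139 CPM against 63.7 and 82.9 CPM, of which the products of Itgav and Itgb3 pair as a receptor of vitronectin. Itga2, Itgam, Itga4, Itgb2 and Itgb7 were among the lower ones.

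Most of the chemokines compared were lower in the Gzmc-high cells. Ccl5, which draws T cells and monocytes, was at 42.6 CPM in the TB and 191 CPM in the PBS Gzmc-high cells, against 4723 and 2204 CPM in the other NK cells, ratios of 0.00902 and 0.0866. Thinned to 1000 UMIs, 5.0% and 11.0% of the Gzmc-high cells had a Ccl5 UMI, against 65.2% and 42.5% of the other NK cells and 3.1% and 8.0% of the B cells. The source of the chemokine UMIs in B cells was not tested. Ccl4 was at 88.1 and 111 CPM against 930 and 712 CPM, and Ccl3 at 13.3 and 38.4 CPM against 192 and 195 CPM, and both had thinned shares in the Gzmc-high cells no higher than 5.8%, near the 2.1% to 5.9% of B cells. In all, 4 of 5 chemokines were at least 1.5-fold lower in both libraries, against 5.48% of all genes. Cxcl10 was among them, and Xcl1 lay within that fold. Ccl1 missed the filter in the PBS library and was not counted. It was at 92.3 CPM in the TB and 18.3 CPM in the PBS Gzmc-high cells, from 8 and 9 cells. In the other NK cells Ccl1 was at 2.22 CPM in the TB and 0.75 CPM in the PBS library.

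Cytokine genes were split. Ifng, the interferon of activated NK cells, was at 74.6 and 70.6 CPM in the TB and PBS Gzmc-high cells, against 144 and 176 CPM. Ltb, a lymphotoxin chain, was at 432 and 404 CPM against 220 and 222 CPM. With Tnfsf10 it made 2 of 8 genes higher, and Ifng made 1 of 8 lower, against 1.82% and 5.48% of all genes. Of 10 cytokine receptors, 3 were lower in both libraries and none was higher, against 5.48% of all genes lower. These were Il12rb2 and Il18rap, for the cytokines that induce interferon, and Ifngr1 at 431 and 430 CPM against 788 and 746 CPM. Il2rb, the chain shared by the IL-2 and IL-15 receptors, was at 1155 and 1137 CPM against 1238 and 1219 CPM. Because Ifng, Ccl3 and Ccl4, genes known to be raised in freshly activated NK cells, were lower while Tnfrsf9, the activation receptor 4-1BB, was higher at 606 and 625 CPM against 343 and 330 CPM, these cells are named here by Gzmc and not as activated.

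Lineage factors did not separate the groups. Eomes, which marks NK cells, was at 209 and 231 CPM in the TB and PBS Gzmc-high cells, against 229 and 261 CPM, and Tbx21 at 78.2 and 71.7 CPM against 99.7 and 86.2 CPM. Of 17 NK transcription factors, 2 were at least 1.5-fold higher in both libraries and 1 was lower, against 1.82% and 5.48% of all genes. Bhlhe40 was higher at 352 and 367 CPM against 204 and 221 CPM. So was Ikzf2 at 107 and 127 CPM against 56.0 and 77.6 CPM, and Zeb2 was lower. Of 9 targets of IL-2 and IL-15 signalling, 2 were lower in both libraries and none was higher, against 5.48% and 1.82% of all genes. Pim1 and Pim2, kinases known as targets of IL-2-type cytokines, were lower, with Pim1 at 143 and 151 CPM against 355 and 335 CPM. Of 14 immediate early genes, 1 was higher and 5 were lower, against the same shares of all genes. Dusp2, a nuclear phosphatase, was the higher one at 898 and 904 CPM against 501 and 523 CPM. The lower ones were Fos, Ier2, Ier5, Dusp1 and Zfp36.

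Of 24 interferon-stimulated genes, 9 were at least 1.5-fold lower in both libraries, none was higher and 15 were neither, against 5.48% of all genes lower. Ifit3 stood at 67.0 and 94.2 CPM in the TB and PBS Gzmc-high cells, against 234 and 199 CPM, and Isg15 at 294 and 356 CPM against 589 and 561 CPM. Of 16 glycolysis and hypoxia genes, 5 were higher in both libraries, none was lower and 11 were neither, against 1.82% of all genes higher. These were Pgk1, a glycolytic kinase, at 417 and 424 CPM against 218 and 241 CPM, Gpi1, Tpi1, the lipid droplet gene Hilpda at 93.3 and 101 CPM against 41.5 and 38.9 CPM, and Vegfa at 57.2 and 82.3 CPM against 27.0 and 37.7 CPM. Of 25 oxidative phosphorylation genes, Ndufa4 alone was past 1.5-fold in both libraries, and it was lower, against 5.48% of all genes lower.

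**Figure D4:**
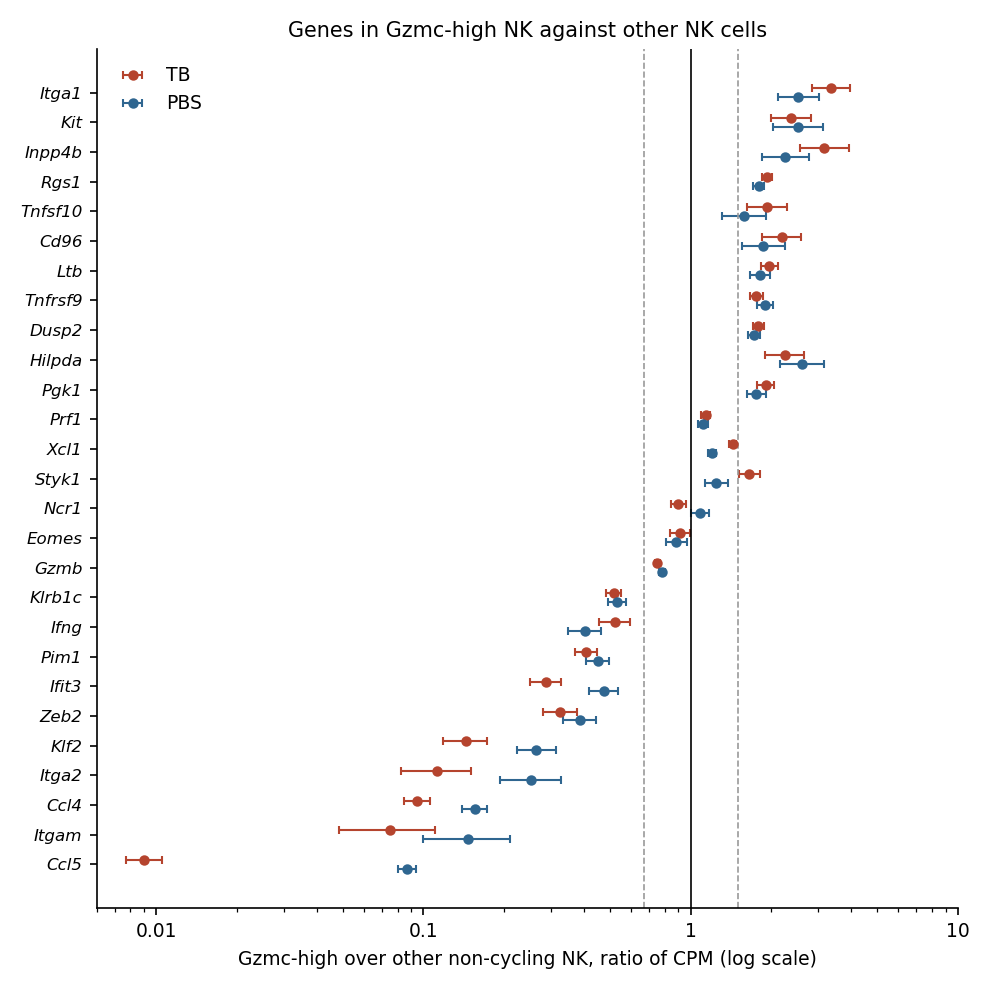
Ratio of CPM in Gzmc-high over other non-cycling NK cells (x axis, log scale, exact conditional 95% intervals) for genes of the lists described, in the TB library (red, above) and the PBS library (blue, below). Dashed lines stand at 1.5-fold in either direction. Residency genes such as Itga1 lie to the right, Prf1, Ncr1 and Eomes near 1, and Klf2, Itgam and Ccl5 to the left.

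Between the libraries, few genes of the Gzmc-high cells differed past 1.5-fold. Of 2862 genes compared, 7 (0.245%) were at least 1.5-fold higher and 32 (1.12%) at least 1.5-fold lower in the TB than in the PBS Gzmc-high cells, and the median gene differed by 0.00 on the log2 scale. Among the 32 were 4 erythroid markers, the only ones of 6 that could be compared, with a median of -4.74 on the log2 scale. With granzyme, mitochondrial, ribosomal and haemoglobin genes left out of the total, 21 were higher and 51 lower at 4115 genes compared. Without the cells that carried B, myeloid or dendritic markers, which left 97 TB and 163 PBS cells, 33 were higher and 65 lower. Gzmc itself had a ratio of 0.996 (0.984 to 1.01) over all Gzmc-high cells, which the shared threshold bounds from below. Gzmd had a ratio of 0.98 (0.93 to 1.03), and Prf1, Xcl1 and Gzmb had 1.04, 1.01 and 1.02.

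Among the granzymes, Gzmf had a ratio of TB to PBS of 1.58 (1.48 to 1.68), Gzme of 1.46 (1.35 to 1.57) and Gzma of 1.48 (1.43 to 1.53), and Gzmg of 0.44 (0.39 to 0.49). Gzma, with a UMI in 196 of 262 TB and 271 of 328 PBS cells, kept a ratio of 1.51 when the cell with the most UMIs was left out of each library. So did Gzme, at 1.56, and Gzmf, at 1.66, although Gzmf was seen in fewer of the TB cells. The Gzmg ratio moved to 0.75 without those cells, with 29.0 CPM in the TB and 38.8 CPM in the PBS cells that remained, so its gap rested largely on 1 PBS cell.

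Some of the other large differences were carried by many cells. Jun, an AP-1 subunit of the immediate early response, was at 318 CPM in the TB and 631 CPM in the PBS Gzmc-high cells, a ratio of 0.50 (0.47 to 0.54), with a UMI in 226 TB and 286 PBS cells. Fosb was at 68.9 CPM in TB and 160 CPM in PBS, Ide at 62.1 and 135 CPM, and Lars2, a mitochondrial leucyl-tRNA synthetase, at 172 and 329 CPM. The chaperone genes Hspa1a and Hspa1b were at 53.5 and 92.8 CPM in TB, against 144 and 167 CPM in PBS, and came from fewer cells, with a UMI in 55 and 60 TB and 109 and 135 PBS cells and 62.1% and 58.0% of the TB UMIs in 10 cells. None of these 6 turned within 1.5-fold when the top cell of each library was left out. In the other NK cells Jun, Hspa1a, Hspa1b, Ide and Lars2 had ratios of 0.55, 0.53, 0.39, 0.54 and 0.46 as well, and Fosb had 0.73. Itgax, the integrin CD11c, was at 75.9 CPM in TB and 47.9 CPM in PBS, and Mrps5 at 53.5 and 33.1 CPM, each seen in 91 to 125 cells of a library.

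By contrast, Ccl1, a chemokine of activated lymphocytes, was at 92.3 CPM in the TB and 18.3 CPM in the PBS cells, but came from 8 TB and 9 PBS cells, with 47.3% and 43.5% of its UMIs in 1 cell each, and without these cells its ratio was 4.71. Il1b and Thbs1, genes of myeloid cells, had 51.7% and 33.2% of their TB UMIs in 1 cell, with ratios of 2.14 and 2.18 without the top cells. Il1b had a log2 ratio of -0.996 in cells at 10000 CPM of Gzmc or more, against 1.44 over all. The MHC class II genes H2-Aa, H2-Ab1, H2-Eb1 and Cd74 were lower in TB, at ratios of 0.38, 0.38, 0.24 and 0.53, but a single PBS cell of 44006 UMIs held 74.4%, 62.8%, 74.9% and 57.6% of their PBS UMIs. Without the top cells their ratios were 1.21, 0.88, 0.77 and 1.00. That barcode also held 10 UMIs of Ncr1, 11 of Klre1 and 605 of Gzmc.

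**Figure D5:**
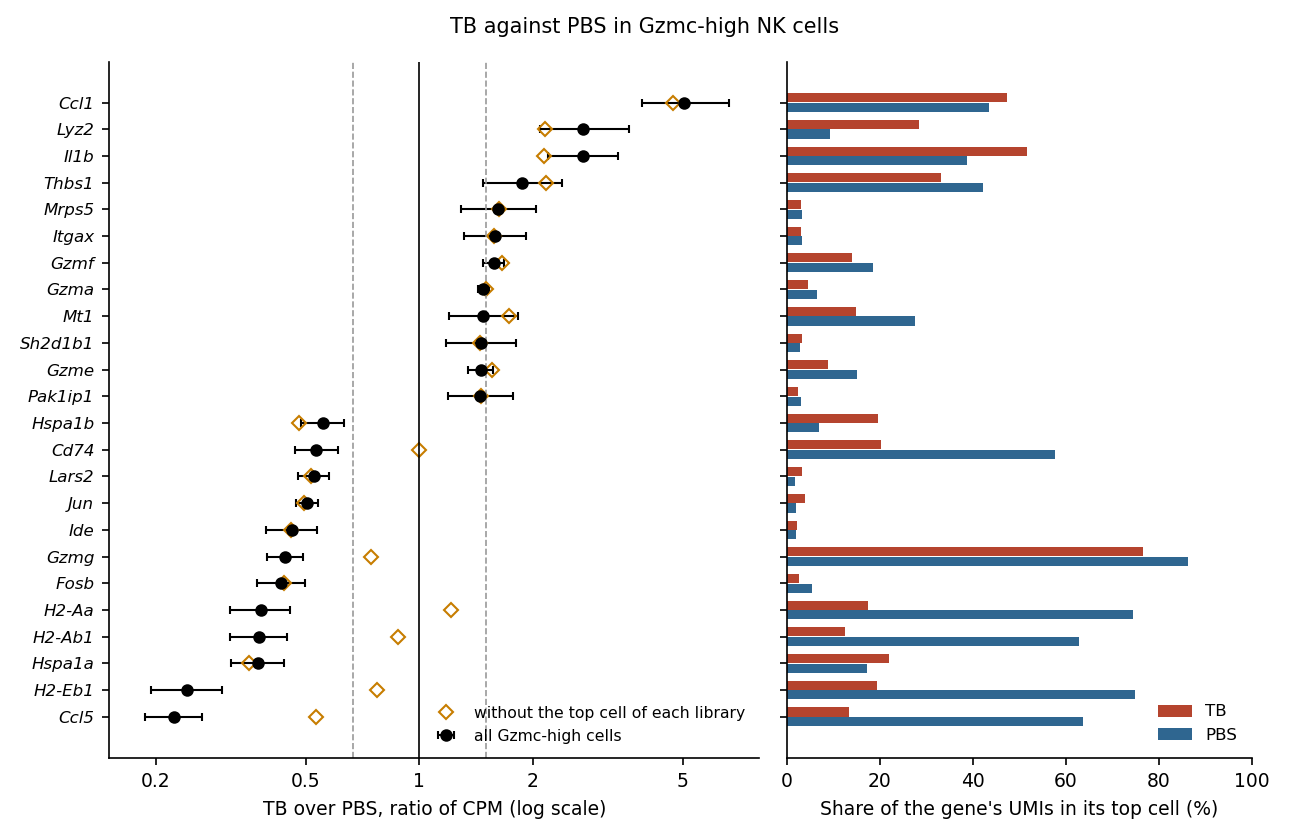
Left, the ratio of TB to PBS CPM in Gzmc-high NK cells (x axis, log scale) for the 12 highest and 12 lowest genes, over all cells (filled, exact conditional 95% interval) and without the cell with the most UMIs of the gene in each library (open diamonds), with dashed lines at 1.5-fold. Right, the share of the gene's UMIs held by that cell in the TB (red) and PBS (blue) library. Genes left out of the ranks, such as haemoglobin genes, are not shown. Jun, Fosb, Lars2 and Ide keep their place, whereas H2-Aa, H2-Ab1, H2-Eb1 and Cd74 move to between 0.77 and 1.21.

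The gene lists repeated this picture between the libraries. Of 11 heat shock genes, 3 were at least 1.5-fold lower in the TB Gzmc-high cells and none was higher, with a list median of -0.34 on the log2 scale, and of 14 immediate early genes 3 were lower, with a median of -0.18, against 1.12% of all genes lower and an overall median of 0.00. The remaining heat shock gene was Hsph1, at 63.9 CPM in TB and 100 CPM in PBS, and the remaining immediate early gene was Dusp5, at 103 and 158 CPM. Of 23 interferon-stimulated genes, 1 was lower, Stat2 at 50.9 CPM in TB and 80.4 CPM in PBS, with a median of -0.25. Of 10 NF-kappaB genes, 1 was lower, Nfkbia, the inhibitor that the pathway itself induces, at 137 CPM in TB and 209 CPM in PBS. None of the 25 oxidative phosphorylation genes, the 20 ribosome biogenesis genes or the 17 glycolysis and hypoxia genes was past 1.5-fold.

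Subunits of the vacuolar ATPase, the pump that thonzonium bromide is known to inhibit, were at close to the same level. Of 8 subunits compared, none was past 1.5-fold between the libraries, with a median of 0.04 on the log2 scale and a range of -0.05 to 0.16. Atp6v0c, the proteolipid of the membrane ring, was at 158 CPM in the TB and 148 CPM in the PBS Gzmc-high cells, and Atp6v1f at 248 and 224 CPM. Of 13 lysosome genes none was past 1.5-fold between the libraries, with a median of -0.17. Of all genes 0.245% were higher and 1.12% lower, and 8 and 13 genes are too few to tell whether these lists depart from these shares.

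Markers of other cell types were present in the Gzmc-high cells. The summed level of 9 macrophage and monocyte markers was 102 CPM in the TB and 100 CPM in the PBS Gzmc-high cells, against 546 and 276 CPM in the other NK cells, with none of the 9 at 0 in TB and 1 in PBS. Of these markers only Lyz2, the lysozyme of myeloid cells, could be compared between the libraries, and it was at 54.8 CPM in the TB and 20.1 CPM in the PBS Gzmc-high cells. Its ratio was 2.73, or 2.15 without the top cells, and it had a UMI in 32.1% of TB and 16.2% of PBS cells. The sum of 7 dendritic markers was 188 and 427 CPM, against 2238 and 1673 CPM, with 1 marker at 0 in TB and 2 in PBS, and 28.2% of TB and 29.0% of PBS Gzmc-high cells had 2 or more UMIs of them. The 6 erythroid markers summed to 293 CPM in the TB and 8006 CPM in the PBS Gzmc-high cells, against 2894 and 22715 CPM in the other NK cells, and 34.0% of TB and 94.2% of PBS Gzmc-high cells had 2 or more UMIs of them. The myeloid genes Cd74, Lyz2, Fcgr1, Cybb, Ms4a6c, Tgfbi and Alox5ap were among the 12 genes furthest below the other NK cells. Without the marker-carrying cells Fcgr1 turned to 1.01 on the log2 scale in the TB library, and Alox5ap to 0.095 and Lyz2 to 0.25 in the PBS library. Lyz2 is itself a marker of that filter, which bounds its value there, and the cut of 2 UMIs was not scaled to depth. The part of cells or RNA of other types in these differences was not tested.

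Markers of other lymphocytes were measured too. The 10 T cell markers summed to 299 CPM in the TB and 243 CPM in the PBS Gzmc-high cells, against 306 and 238 CPM in the other NK cells. Cd3e and Cd3d are among these markers and, by the rule, could have no UMI in either group. The 5 B cell markers summed to 65.0 and 9.26 CPM in the Gzmc-high cells, against 84.8 and 19.9 CPM. Ctsk, the collagen-degrading protease of osteoclasts, was at 0 in the Gzmc-high cells of both libraries.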

How the data were processed

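CD45+ cells of MFC tumours were sequenced as 1 library per group with a droplet 3′ kit. The values are UMI counts per gene and barcode, as deposited by the authors and made with Cell Ranger 6.1.2 per the file headers. Seurat 3.0, R 3.5.3 and the build mm10 also appear in the submitters' processing notes, with no role given. The deposited tables held 6724 barcodes and 52973138 UMIs in the TB library and 7803 barcodes and 46348444 UMIs in the PBS library, over 32285 genes. No filter of the authors on cells was stated.

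From these counts, barcodes were required to have 200 genes or more and no more than 20% of UMIs from mitochondrial genes, leaving 5833 TB and 6419 PBS cells with medians of 7259 and 4300 UMIs. NK cells were gated on Ncr1, Klre1, Cd3e and Cd3d, cells with 2 or more UMIs of Mki67 and Top2a were set apart as cycling, and Gzmc-high cells were those at 5000 CPM or more. T cells had 2 or more UMIs of Cd3e and Cd3d, B cells 2 or more of B cell markers, and neither had an NK gene UMI. Doublets were not removed. Cells that carried markers of other lineages were left out in an alternative.

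UMIs were summed per library and cell group and divided by the group's total. Intervals were exact Poisson for levels, exact conditional binomial for ratios and Clopper-Pearson for shares, at 95%, and they cover counting error only. Genes were compared where they had 100 UMIs over both groups and 50 CPM in one of them, and were counted at 1.5-fold. The genes named were the 12 highest and 12 lowest ratios of TB to PBS, the 12 furthest above and the 12 furthest below the other NK cells in both libraries by the smaller of the 2 library ratios, the 6 marker genes, and genes of 27 lists. Mitochondrial, ribosomal, haemoglobin, receptor segment, sex-linked and unnamed genes were left out of these ranks only. They stayed in the counts of genes past 1.5-fold. Of 501 listed genes, 499 were in the files, and a few of them are not reported here. The cells, lists and rules were chosen with earlier results of these data known. Shares of cells with a UMI were also computed after thinning each cell to 1000 UMIs, without cells shallower than that: 1 TB and 2 PBS Gzmc-high cells, 1 and 25 other NK cells, and 2 and 5 B cells. The counting was tested on simulated data. Python 3.11.15 with numpy 2.4.6, scipy 1.17.1, pandas 2.3.3 and matplotlib 3.10.9 was used.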

Additional observations from a re-analysis of the deposited data

Results flagged for a closer look

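Ccl5 and H2-Eb1 pointed in opposite directions between the libraries in the Gzmc-high and in the other NK cells, a difference that was not tested. Ccl5 was lower in the TB Gzmc-high cells, at a log2 ratio of -2.164, and 2.14 times as high in the other NK cells of the TB library as in those of the PBS library. Of its UMIs in the PBS Gzmc-high cells, 63.7% came from 1 cell with 460 UMIs, and without the cell with the most in each library the ratio was 0.53, with 37.0 CPM in TB and 69.6 CPM in PBS. Without cells that carried B, myeloid or dendritic markers the log2 ratio turned to 0.0061. H2-Eb1, an MHC class II gene, was at -2.048 in the Gzmc-high cells and 1.5 times as high in the other NK cells. A different PBS cell held 74.9% of its UMIs, and without the top cells the ratio was 0.77.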

How the results depend on the processing

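No paired analysis was possible because each group is 1 library, and leaving out a replicate was not possible either. The share of Gzmc-high cells among non-cycling NK cells, TB over PBS, was 0.75 and stayed between 0.717 and 0.820, except without cells carrying B, myeloid or dendritic markers, where it was 0.618. Over all kept cells it was 0.88 and turned to 1.08 in that setting, whose denominator loses those cells by construction. Genes higher in TB than in PBS Gzmc-high cells numbered 7, against 11 with Gzmc from 2500 CPM, 33 without marker-carrying cells, 12 without the 5% of NK cells with the most UMIs, 14 with each cell scaled alike, 13 after thinning to 1000 UMIs, 21 with granzyme, mitochondrial, ribosomal and haemoglobin genes out of the denominator and 3 at a fold of 2. Genes lower in TB numbered 32, against 65 without marker-carrying cells, 71 with each cell scaled alike, 51 with that denominator and 14 at a fold of 2. Against the other NK cells, 53 were higher, against 31 after thinning, 103 with that denominator and 25 at a fold of 2, and 160 were lower, against 82 after thinning and 50 at a fold of 2. The cause of these moves was not tested.

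Some log2 values changed sign. Against the other NK cells, list medians did so for chemokine and egress receptors in PBS (-0.00102) and cell cycle genes in TB (0.20) with that denominator, and for residency genes in PBS (-0.011) and heat shock genes in TB (0.048) after thinning. Between the libraries, Il1b turned to -0.996 at Gzmc from 10000 CPM, and without marker-carrying cells Il1b was at -0.014, Ccl5 at 0.0061 and Gzmg at 0.62. Without the 5% of NK cells with the most UMIs, Thbs1 was at -0.57, H2-Ab1 at 0.11, H2-Aa at 0.57 and Cd74 at 0.41. Cd74 was at 0.40 with Gzmc from 2500 CPM. H2-Aa was at 0.30 without the cell richest in MHC class II and at 0.28 without the cell with the most of its own UMIs, both settings chosen after seeing the data, as was a limit on haemoglobin. Without marker-carrying cells, Alox5ap (0.095) and Lyz2 (0.25) in PBS and Fcgr1 (1.01) in TB turned above the other NK cells, and Lyz2 is itself one of those markers. The cause was not tested. Of the other log2 ratios, 1296 kept direction and size and 136 moved.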
